A study of Mus musculus with 7 samples.

Results

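The miRNAs described here belong to the miR-297, miR-466, miR-467 and miR-669 families, whose genes lie mostly in an intron of the mouse gene Sfmbt2. Members were taken by name alone, as every entry of the combined count table with 1 of these 4 family numbers and any letter, locus number or arm suffix. The rule found 52 of the 1084 entries, and 41 once entries with the same counts in all 7 libraries were counted once. They were measured by small RNA sequencing of extracellular vesicles (small membrane particles shed by cells) isolated from the adipose tissue of male mice of the C57BL/6J strain. HFD libraries (HFD 1 to HFD 3, 3 libraries) came from mice on a high-fat diet, and Chow libraries (Chow 1 to Chow 4, 4 libraries) from mice on a chow diet, with a diet time of 12 weeks per the series text. The labels give no genetic change or other treatment in either group, and they name neither the fat depot nor the number of animals behind a library. The p-values therefore measure the spread between libraries, which may be technical.

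Sfmbt2 encodes a Polycomb group protein and is imprinted in the mouse, with expression from the paternal allele in early embryos and in the placenta. The miRNA array in its intron is a rodent feature, is processed from the host transcript, and is best known from mouse embryonic stem cells and placenta, where its deletion impairs placental growth. A miRNA precursor folds into a hairpin that yields a mature strand from its 5p arm, its 3p arm or both, and bases 2 to 8 of the strand, the seed, guide it to target mRNAs.

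In GENCODE M21 (GRCm38), 81 precursor genes carry a name of these families, and 71 of them lie within Sfmbt2, which spans positions 10370510 to 10595253 of chromosome 2. All 71 sit in intron 10 of a transcript of 23 exons, between 10461473 and 10523944 on the plus strand, as Sfmbt2 does, and together they span 51.62 kb. The intron holds 29 precursors named miR-669, 23 named miR-466, 14 named miR-467 and 5 named miR-297. Part of the intron is a tandem array, in which 10 copies of Mir467a at a median spacing of 2462 bases alternate with 8 copies of Mir466b and most of the 12 copies of Mir669a. Another 48 precursors annotated as miRNA in this intron carry no name of the 4 families. By name, 43 of the 52 entries had precursors only inside Sfmbt2, 4 only on other chromosomes (miR-466i-5p, miR-466i-3p, miR-466j and miR-466k) and 4 both inside and outside (miR-297a-5p, miR-466f, miR-466f-3p and miR-466f-5p). The name miR-466a-3p had no match in the annotation.

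Mature sequences were matched by name in RefSeq's table for GRCm38.p6, where 3 of the 52 entries were found, all 3 with precursors outside Sfmbt2. They are shown because they carry the dinucleotide repeats of these families, and because miR-466i is the hairpin whose other arm had the largest diet difference among the entries tested. Sequences run 5′ to 3′ in RNA letters, with the seed in capitals.
miR-466i-3p: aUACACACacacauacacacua
miR-466j: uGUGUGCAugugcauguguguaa
miR-466k: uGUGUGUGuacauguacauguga
miR-466i-3p lies at chr13:17747552-17747573, miR-466j at chr10:60960802-60960824 and miR-466k at chr3:85467396-85467418, all on the plus strand. AC or CA made up 71.4% of the dinucleotide steps of miR-466i-3p, a share that 0.06% of the 1679 mature miRNAs of that table reached. UG or GU made up 63.6% of the steps of miR-466j and 59.1% of those of miR-466k, where the median over that table was 14.3%. The 3 seeds differ, and none of them occurs in another mature miRNA of that table. The other entries of the 52 are absent from it, so whether they share these seeds was not examined.

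Library totals ranged from 1825488 to 5941955 counts in HFD and from 48840 (Chow 3) and 180694 (Chow 2) to 2294878 in Chow. Where a member had no count, up to 3 counts remain possible, or 1.64 counts per 1000000 (CPM) at most in the HFD libraries, 1.42 in Chow 1, 16.6 in Chow 2, 61.4 in Chow 3 and 1.31 in Chow 4. In the table of the Chow libraries alone, Chow 2 and Chow 3 carry no value for many entries, 32 of the 52 cluster entries among them, and the combined table holds these as 0. These limits and the intervals given here hold for counting error alone, since amplified reads were not traced to single molecules. A list of 5 adipocyte-associated miRNAs, led by miR-148a-3p, held 23.7% to 30.7% of the counts in HFD and 44.5% to 64.6% in Chow. Of the markers of other cells, the leukocyte list (5) held 0.232% to 0.783% in HFD and 0.0348% to 0.135% in Chow, and the testis and epididymis list (7) 0.0510% to 0.266% in HFD and 0.0216% to 0.0391% in Chow. The endothelial list (2) held 0.106% to 0.115% in HFD and 0.180% to 0.596% in Chow, and ranges of the erythroid (3) and striated muscle (3) lists overlapped between the diets. No entry of these 6 lists was at 0 in every library, and their part in the values below was not tested. In such bulk samples, fewer source cells of a type and less of a miRNA per cell cannot be told apart.

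The cluster families were a minor component of the vesicle miRNAs on both diets. They held 0.0224%, 0.0302% and 0.0241% of all counts in HFD 1 to HFD 3, against 0.0317%, 0.0349%, 0.0491% and 0.0122% in Chow 1 to Chow 4. The mean was 0.0256% ± 0.00409 (SD, n = 3) in HFD and 0.0320% ± 0.0152 (SD, n = 4) in Chow, and the HFD libraries lay within the Chow range. Chow 3 was highest on only 24 counts, with an exact binomial (Clopper-Pearson) 95% interval of 0.0315% to 0.0731%, and Chow 4 was lowest on 281 counts. Since miR-148a-3p alone takes a large part of the total, and a larger one in every Chow library than in any HFD library, the share was also taken without it. It then averaged 0.0335% in HFD and 0.0683% in Chow, and it still overlapped, with 0.0304% to 0.0396% in HFD libraries and 0.0203% to 0.117% in Chow libraries.

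**Figure D1:**
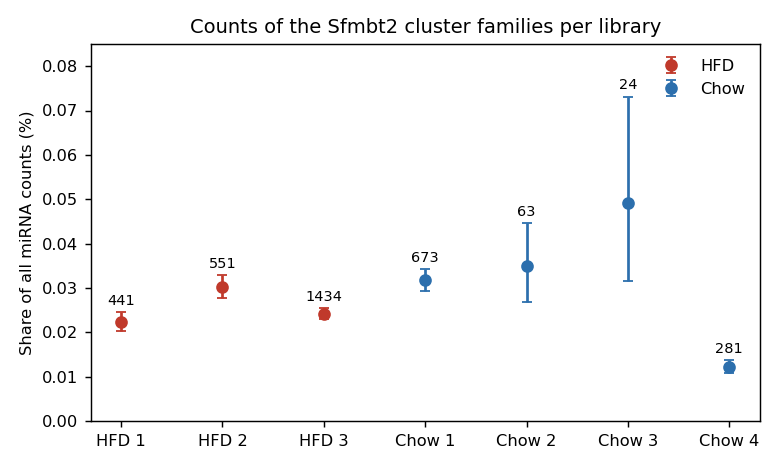
Share of all miRNA counts (percent, vertical axis) held by the 4 cluster families in each library, with exact binomial 95% intervals as bars and the number of cluster counts above each point. The 3 HFD libraries (0.0224% to 0.0302%) lie within the range of the 4 Chow libraries (0.0122% to 0.0491%).

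More members were detected in the deeper libraries. At least 1 count was found for 26, 30 and 35 of the 41 members in HFD 1 to HFD 3, against 31, 11, 8 and 25 in Chow 1 to Chow 4. In Chow 2 and Chow 3, 23 of the 41 members had no listed value and were taken as not detected. At the depth of the smallest library (48840 counts) the expected number was 5.10, 7.53 and 6.02 in HFD 1 to HFD 3, against 7.55, 5.97 and 3.70 in Chow 1, Chow 2 and Chow 4, and the 8 found in Chow 3. The diets thus overlapped both as counted and at equal depth. Of the 41 members, 5 were found in all 7 libraries (miR-669c-5p, miR-669a-3p, miR-467a-5p, miR-466d-3p and miR-466i-5p) and 7 in 1 library only.

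The counts were very unequal among the members. Over all libraries the cluster had 3467 counts, of which miR-669 members held 66.0%, miR-467 members 19.8%, miR-466 members 11.8% and miR-297 members 2.31%, although miR-466 was the largest family by entries (22 of 52). These sums are weighted to HFD 3, which gave 1434 of the counts. With libraries weighted equally, miR-669 held 67.8% of the cluster in HFD and 59.8% in Chow. On the same weighting, miR-467 held 19.8% in HFD and 11.1% in Chow, and miR-466 held 9.73% in HFD and 23.3% in Chow. For miR-467, Chow 1 (18.7%) and Chow 4 (18.5%) lay within the HFD range of 11.1% to 26.7%. Its lower Chow mean came from Chow 2 (3.2% on 2 counts) and Chow 3 (4.2% on 1 count). In these libraries most miR-467 entries had no listed value and were held as 0, among them miR-467e-5p, miR-467c-5p and miR-467a-3p. For miR-466, Chow 4 (8.90%) lay within the HFD range of 8.62% to 10.5%. In Chow 3, on 24 counts, miR-466 (45.8%) was above miR-669 (33.3%). miR-669c-5p, from 1 annotated precursor (Mir669c, chromosome 2, 10509296 to 10509404), supplied 43.9% of the cluster counts, and the 5 most abundant members together 73.1%. The next by summed counts were miR-669a-3p with 350, miR-467a-5p with 275, miR-669a-5p with 196 and miR-467e-5p with 192. By mean CPM over the 7 libraries, which gives the shallow Chow 3 equal weight, the next were miR-466i-5p (30.1), miR-669a-3p (25.6), miR-467a-5p (18.9) and miR-466a-3p (14.2). This order did not follow copy number: the miR-669a entries have 12 annotated precursors and the miR-467a entries 10, while miR-669c and miR-467e have 1 each. Entries with the counts of another entry were miR-467a-5p with miR-467b-5p, miR-467a-3p with miR-467d-3p and miR-466a-3p with miR-466b-3p, so each of these values belongs to either or both names. The other equal counts were among entries with at most 3 counts in all, where equality may be coincidence, so different miRNAs may have been counted as 1 member. With every row kept, 33, 33 and 42 were detected in HFD 1 to HFD 3, against 34, 12, 10 and 28 in Chow 1 to Chow 4. Because members resemble each other in sequence and the counting program is not given in the sources used here, reads may have been divided between members or counted for several.

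**Figure D2:**
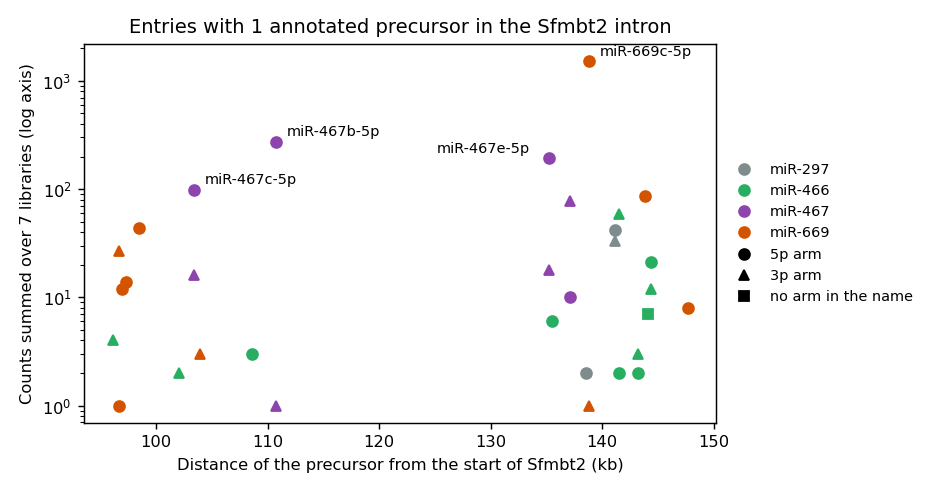
Counts summed over 7 libraries (vertical log axis) for the entries with 1 annotated precursor inside Sfmbt2, by distance of the precursor from the start of Sfmbt2 in kb (horizontal axis). Colours show families and symbols show arms. miR-669c-5p stands highest at 138.79 kb with 1521 counts, and entries with several precursors, such as those of miR-467a and miR-669a, are not drawn under their own names. The points of miR-467b-5p (275 counts) and miR-467d-3p (78 counts) hold counts shared with miR-467a-5p and miR-467a-3p. Their counts may thus not come from the positions drawn.

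miR-669c-5p, the main cluster miRNA in these vesicles, had 237, 217 and 625 counts in HFD 1 to HFD 3, against 270, 35, 6 and 131 in Chow 1 to Chow 4. This was 111, 101 and 96.5 normalised CPM (CPM of the scaled library total) in HFD and 179, 164, 132 and 62.4 in Chow. HFD libraries were close to each other and lay between Chow 4 and the other 3 Chow libraries. In edgeR's quasi-likelihood test its log2 fold change, HFD over Chow, was -0.38 (SE 0.49, adjusted p = 0.709), from means of 103 ± 7.17 (SD, n = 3) in HFD and 134.4 ± 51.8 (SD, n = 4) in Chow. Among all entries its rank was 158, 159 and 159 in HFD 1 to HFD 3, against 128 in Chow 3, 135 in Chow 1 and 183 in Chow 4. In Chow 2 it also ranked above its place in every HFD library. Within the cluster it held 53.7%, 39.4% and 43.6% of the counts in HFD 1 to HFD 3, against 40.1%, 55.6%, 25.0% and 46.6% in Chow 1 to Chow 4.

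The hairpins differed in which arm was found, and the preferred arm differed within the miR-669 family. Of 16 precursor names with both arms in the table, 14 had at least 20 counts over both arms. The 5p arm was the main one, with an exact binomial 95% interval above 50%, in 6 of these 14 (miR-669c, miR-467a, miR-467b, miR-467e, miR-466i and miR-467c). The 3p arm was the main one in 6 (miR-669a, miR-466b, miR-467d, miR-466d, miR-669f and miR-466f), and the interval included 50% in 2 (miR-297b and miR-466h). miR-669c was counted almost wholly from the 5p arm, with 1521 counts against 1 for the 3p arm, which is 99.9% 5p. The 3p arm held 64.1% of the 546 counts of miR-669a (interval 59.9% to 68.1%), a miRNA reported in mice to restrain muscle differentiation. In the libraries with more than 20 counts of miR-669a, the 3p share was 64.5%, 60.5% and 64.8% in HFD 1 to HFD 3, against 65.6% in Chow 1 and 60.9% in Chow 4. Chow 2 had 12 counts of miR-669a and Chow 3 had 1. The 5p arm of miR-467d had 10 counts, and its 3p arm, counted together with that of miR-467a, had 78. The 3p lead of miR-467d may therefore not be its own, and the other miR-467 names with a main arm had the 5p arm. Among miR-466 names with a main arm, only miR-466i, with its precursor outside Sfmbt2, had the 5p arm. The 5p counts of miR-467a and miR-467b were equal in every library, so their arm shares are not independent.

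**Figure D3:**
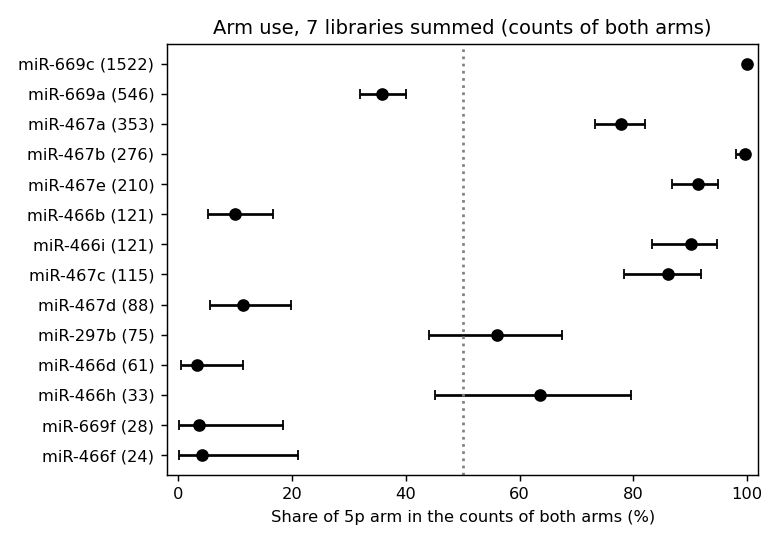
Share of the 5p arm in the counts of both arms (percent, horizontal axis), summed over 7 libraries, for the 14 names with at least 20 counts, which are given in parentheses. Bars are exact binomial 95% intervals and the dotted line marks 50%. The 5p share is 99.9% for miR-669c, 35.9% for miR-669a and 3.28% for miR-466d.

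Diet was compared for the members with enough counts for the test across all miRNAs. The filter kept 385 entries, among them 13 rows of the cluster families, which are 10 members with distinct counts and hold 85.8% of the cluster counts. The 31 members left out had between 1 and 99 counts over all libraries. None of the 10 passed the adjusted threshold of 0.05 in edgeR, where 11 of the 385 passed (2.86%), 8 of them higher (2.08%) and 3 lower (0.779%) in HFD. At an unadjusted p under 0.05 there was 1 of the 10, against 24.2% of the 385. DESeq2 called 1 of the 10, against 13.0% of the 385, and limma-voom 0, against 4.16%. DESeq2 gave no adjusted p for miR-466d-3p, miR-467a-3p and miR-669o-5p, and entries without one are taken here as not called. Without the shallow Chow 2 and Chow 3, edgeR called 0 of 11 cluster members and 0.0% of all 403 entries tested. At an unadjusted p under 0.05 it then had 23.6% of all entries and none of the 9 members tested in both fits. The fold change was negative for 7 members, among them miR-466d-3p, which passed the filter through Chow libraries alone, and positive for 3. The median log2 fold change was -0.38 beside -0.02 over all 385. With library size as the only scaling these medians were -0.04 and 0.31. Without Chow 1 the median was 0.24 over the 8 members that were then tested.

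**Figure D4:**
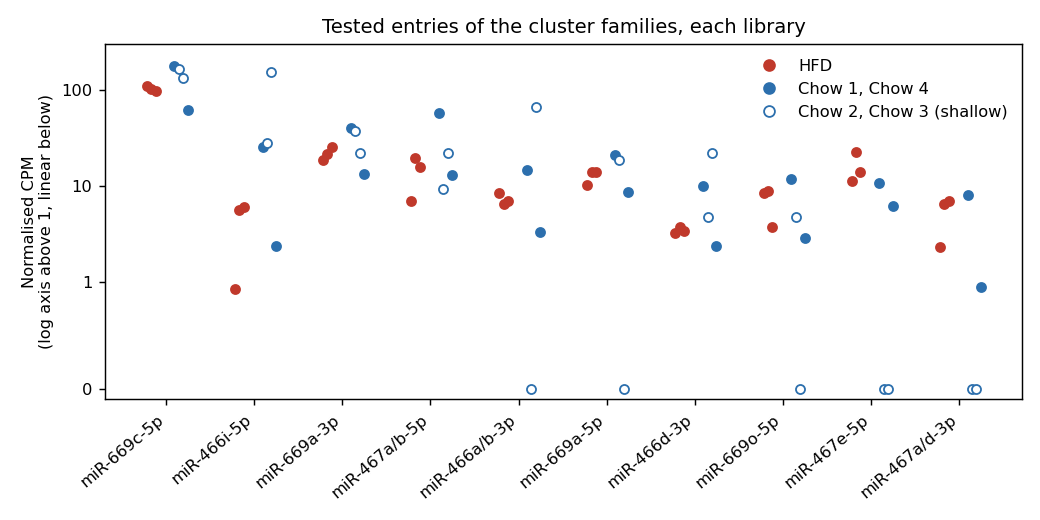
Normalised CPM (vertical axis, logarithmic above 1 and linear below) of the 10 tested members in each library, with HFD left and Chow right within each member and open symbols for the shallow libraries Chow 2 and Chow 3. Symbols of the diets overlap for every member except miR-467e-5p, whose HFD libraries (11.2 to 22.8) lie above Chow 1 and Chow 4 (10.6 and 6.19), with missing values in Chow 2 and Chow 3 drawn at 0.

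The largest difference was in miR-466i-5p, whose precursor by name lies on chromosome 13 (Mir466i, 17747473 to 17747593) and not in the Sfmbt2 intron. Its reads were not mapped here, so their source beyond the name is not known. It had 2, 12 and 39 counts in HFD 1 to HFD 3, against 38, 6, 7 and 5 in Chow 1 to Chow 4. In normalised CPM this was 0.933, 5.58 and 6.02 in HFD and 25.2, 28.2, 153.96 and 2.38 in Chow. HFD libraries were low and 3 Chow libraries were higher, but Chow 4 lay within the HFD range. The log2 fold change was -2.75 (SE 1.09, unadjusted p = 0.0266, edgeR adjusted p = 0.156). It was -1.91 (adjusted p = 0.255) without Chow 3, whose value rests on 7 counts, and -1.61 (adjusted p = 0.365) without Chow 2 and Chow 3. DESeq2 gave -3.26 with an adjusted p of 0.0113, and over all alternatives the adjusted p lay between 0.0107 and 0.380. Its 3p arm, shown above, had 1, 2 and 4 counts in HFD 1 to HFD 3, against 5, 0, 0 and 0 in Chow 1 to Chow 4. The cluster counts with precursors only outside Sfmbt2, 124 in all and 109 of them miR-466i-5p, were 0.680%, 2.54% and 3.07% of the cluster in HFD 1 to HFD 3, against 6.69%, 9.52%, 29.2% and 1.78% in Chow 1 to Chow 4.

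Among members inside Sfmbt2, miR-467e-5p (Mir467e, chromosome 2, 10505721 to 10505807) had the smallest p. It had 24, 49 and 90 counts in HFD 1 to HFD 3, against 16 and 13 in Chow 1 and Chow 4, with no value listed for Chow 2 and Chow 3, which entered the test as 0. The HFD libraries held 11.2, 22.8 and 13.9 normalised CPM, and Chow 1 and Chow 4 held 10.6 and 6.19. All 3 HFD libraries were above these 2 Chow libraries, although HFD 1 and Chow 1 were nearly equal. With the missing values taken as 0 the diets did not overlap, as for 22.3% of all tested entries, and the libraries with a listed value did not overlap either. Whether Chow 2 and Chow 3 lay below the HFD libraries is not known. Their limits of 16.6 CPM in Chow 2 and 61.4 CPM in Chow 3 reach into or above the HFD range of miR-467e-5p. Its fold change on the log2 scale was 1.22 (SE 0.64, adjusted p = 0.270 in edgeR) and 0.93 (adjusted p = 0.336) without Chow 2 and Chow 3, so the difference did not pass. miR-467c-5p, an entry picked once its counts were known, was not tested, because 2 libraries reached the 5.08 CPM that the filter asked for in 3. It had 5, 28 and 50 counts in HFD 1 to HFD 3, against 8 each in Chow 1 and Chow 4.

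miR-467a-5p, which shares its counts with miR-467b-5p, a miRNA reported to repress lipoprotein lipase in mouse macrophages, had a log2 fold change of the opposite sign to miR-467e-5p. It had 15, 42 and 101 counts in HFD 1 to HFD 3, against 87, 2, 1 and 27 in Chow 1 to Chow 4. The fold change was -0.99 (SE 0.67, edgeR adjusted p = 0.398), and it was 0.18 (adjusted p = 0.904) without Chow 1, the library with the highest level (57.6 normalised CPM). As a share of the 2 strands together, a ratio chosen after the values were seen and not tested, miR-467e-5p made up 61.5%, 53.8% and 47.1% in HFD 1 to HFD 3. It made up 15.5% in Chow 1 (interval 9.15% to 24.0%) and 32.5% in Chow 4 (18.6% to 49.1%), and Chow 2 and Chow 3 together had 3 counts of both strands. The ratio does not depend on the scaling between libraries. In the 5 deeper libraries it was higher in every HFD library than in either Chow library, although the Chow 4 interval overlapped those of HFD 1 to HFD 3. It pairs the tested intron members with the most positive and the most negative fold change, so a separation was favoured by the choice. How often other pairs separate was not examined, and the ratio is no support for a diet difference.

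The remaining miR-467 and miR-669 members overlapped between the diets. miR-669a-3p had 18.7, 21.4 and 25.6 normalised CPM in HFD 1 to HFD 3, against 40.4, 37.5, 22.0 and 13.3 in Chow 1 to Chow 4 (-0.39 ± 0.54 (SE) as log2 fold change, with an adjusted p of 0.763 in edgeR). Its partner arm miR-669a-5p averaged 12.7 ± 2.11 in HFD and 12.1 ± 9.77 in Chow, with a log2 fold change of -0.20 (SE 0.56) that was 0.19 under library size scaling. miR-669o-5p averaged 6.98 ± 2.84 in HFD and 4.87 ± 5.09 in Chow (log2 fold change 0.05, SE 0.69). miR-467a-3p, counted together with miR-467d-3p, had 2.33, 6.51 and 6.95 in HFD 1 to HFD 3, against 7.95 in Chow 1 and 0.952 in Chow 4 (0.55, SE 0.82), with no value listed for Chow 2 and Chow 3. The means are over 3 HFD and 4 Chow libraries, and no adjusted p of these 4 members was under 0.763.

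Among miR-466 members from the intron, miR-466d-3p had 7, 8 and 22 counts in HFD 1 to HFD 3, against 15, 1, 1 and 5 in Chow 1 to Chow 4. The HFD libraries spanned 3.26 to 3.72 normalised CPM and the Chow libraries 2.38 to 22.0 (-0.88 ± 0.68 (SE) as log2 fold change, with an adjusted p of 0.484 in edgeR). It passed the filter through Chow 1 to Chow 3 alone, with no HFD library at the 5.08 CPM needed, so its sign was favoured by the filter and is no support for a difference. miR-466a-3p, counted together with miR-466b-3p, spanned 6.51 to 8.39 in HFD and 0 to 66.0 in Chow (-0.47, SE 0.85, edgeR adjusted p = 0.808), and the highest value was Chow 3 on 3 counts. miR-466h-5p, reported to promote apoptosis in nutrient-starved mouse cells, had 2, 5 and 7 counts in HFD 1 to HFD 3, against 6 in Chow 1 and 1 in Chow 4, and was not tested. miR-297a-5p, the miR-297 entry with the highest mean CPM, owed that rank to 4 counts in Chow 3 and had 1 other count, in HFD 1.

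**Figure D5:**
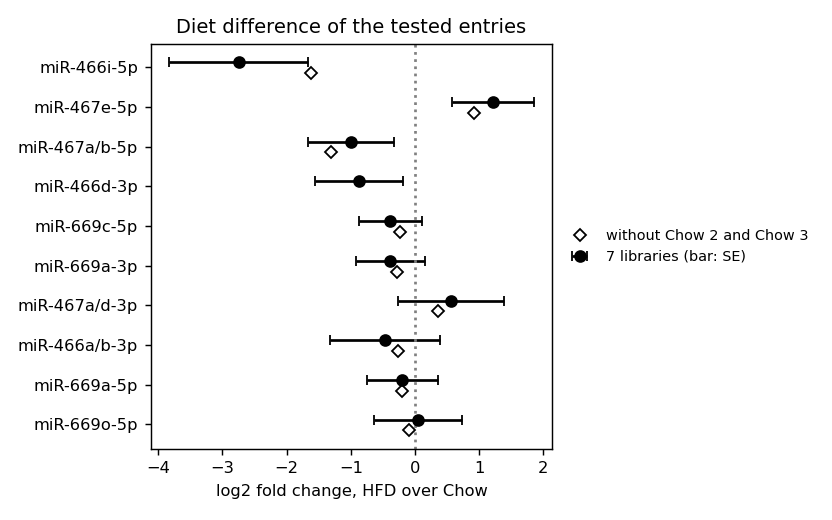
Log2 fold change, HFD over Chow (horizontal axis), of the 10 tested members over 7 libraries with SE bars, and without Chow 2 and Chow 3 as open diamonds. miR-466i-5p has -2.75 with and -1.61 without these libraries, miR-467e-5p has 1.22 and 0.93, and miR-466d-3p was too low for the test without them.

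Other imprinted miRNAs were taken as a list of 79 entries from the Dlk1-Dio3, Mest, Igf2 and Gnas loci. No H19 miRNA was among them, and Igf2 was represented by miR-483-3p alone, which was too low for the test. They were more abundant than the Sfmbt2 families, at 0.332% to 0.390% of the counts in HFD libraries and 0.217% to 0.364% in Chow libraries. Of 39 tested, none passed in edgeR in either direction, against 2.86% of all 385 tested entries. At an unadjusted p under 0.05 in edgeR there was 1, against 24.2%. DESeq2 called 1, against 13.0%, and limma-voom 0, against 4.16%. The median log2 fold change of these imprinted miRNAs was -0.23, beside -0.02 over all 385. Their most abundant entry was miR-335-5p, from the Mest locus, with 1073 to 1697 CPM in HFD and 205 to 980 CPM in Chow (log2 fold change 1.32, SE 0.47, edgeR adjusted p = 0.123).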

How the data were processed

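Per the file headers and values, the authors deposited unnormalised read counts for each miRNA, in a table of all 7 libraries and a table for each diet. The submitters' processing notes name Bowtie, and the sources used here give no counting program, genome build or miRNA release. Small RNA libraries were made from Trizol-extracted RNA, per the labels' protocols.

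Counts of the combined table were tested in R 4.3.3 with edgeR 4.0.16 (quasi-likelihood F test, TMM scaling, filterByExpr, diet as the only term, Benjamini-Hochberg adjustment over all tested entries, threshold 0.05). The SE was derived from the F statistic. Normalised CPM divide counts by the TMM-scaled library total. The test was checked on simulated counts. Shares of counts, detection and arm use were described without a test. Expected detection at equal depth used the hypergeometric formula. Precursors were matched by name and RefSeq synonym to GENCODE M21. Alternatives used other scalings and filters, DESeq2 1.42.0, limma-voom (limma 3.58.1), omission of libraries, a replicate block and other choices of entries.

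The members and lists were chosen with earlier results of these data known. Members named are all tested entries, those with at least 100 counts, the highest by mean CPM in each family and the 5 with the smallest p, and others are said to be chosen after their values were seen or serve as examples.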

Additional observations from a re-analysis of the deposited data

Results flagged for a closer look

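In the 4 Chow libraries, 16 measures were examined for a library far from the other 3, of which about 1 in 20 is flagged by chance. Chow 3 stood apart in miR-466i-5p, with 153.96 normalised CPM on 7 counts, while the other Chow libraries had 2.38 to 28.2. Members with no listed value in Chow 2 and Chow 3 were not examined.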

How the results depend on the processing

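Over all entries, 11 calls became 18 with DESeq2 size factors, 38 with library size only, 62 of 1042 without a filter, 50 in DESeq2 and 0 without Chow 2 and Chow 3 (95 at an unadjusted p under 0.05). Omission of 1 library gave 0 (HFD 2) to 32 (Chow 1) calls, with 4 without Chow 2, 6 without Chow 3, and 1 each without Chow 4 and HFD 3. Among cluster members the count of 0 calls became 1 without a filter, in DESeq2 and with the replicate block, each time miR-466i-5p (-2.48, -3.26 and -3.88 log2, adjusted p = 0.0156, 0.0113 and 0.0107). Deviations of equal replicate numbers had correlations of 0.067, -0.164 and 0.035, and those of unequal numbers lay between -0.293 and 0.309. Because Chow 2 and Chow 3 are shallow, these values cannot exclude that equal numbers share an origin. The labels do not say that they do, so the block of libraries 1 to 3, with 22 calls in all, is given as a variant. The median log2 fold change was -0.38 over the 10 members of the main fit. It was 0.24 over the 8 members tested without Chow 1 and 0.05 over all 41 members without a filter. With 1 library omitted it lay between -0.71 and 0.24. These medians are over different sets of members, so a change of sign need not mean that the same members changed. Of 162 alternative values of single members 15 changed sign, none past the threshold. With 1 library omitted the values were -1.35 to 0.18 for miR-467a-5p, -0.75 to 0.027 for miR-669a-3p, -0.10 to 1.10 for miR-467a-3p, -1.04 to 0.36 for miR-466a-3p, -0.53 to 0.30 for miR-669a-5p and -0.47 to 1.17 for miR-669o-5p. Other sign changes were miR-467a-3p with the replicate block (-0.25), miR-669a-5p with library size only (0.19) and without a filter (0.15), and miR-669o-5p in limma-voom (-0.081) and without Chow 2 and Chow 3 (-0.091). The mean cluster share was 0.0335% in HFD and 0.0683% in Chow without miR-148a-3p, and 0.0202% in HFD and 0.0305% in Chow with only the entries listed for all libraries. Mean detection was 6.22 members in HFD and 6.30 in Chow at the smallest depth, 21.3 in HFD and 11.25 in Chow at 3 counts or more, and 36.0 in HFD and 21.0 in Chow with every row. The cause of these changes was not tested, except that fewer entries are counted at lower depth or a higher count limit. Chow 2 and Chow 3 limit every member of low abundance.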
